A study of Mus musculus with 8 samples.

Results

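Among mouse bone marrow cells with high activity of the Dach1 gene, those with the most CD135 on their surface were compared with those with the least. The cells were wells of 8 plates of single-cell libraries made by CEL-seq2, a method that reads the 3' ends of polyadenylated RNA. Of 2987 wells with counts and a sort record, 2715 had at least 1000 counts and 500 genes, and 1356 of those lay above their plate's median of GFP, which reports Dach1. Members were then chosen by CD135 intensity: of the 168 to 170 GFP-high wells on each plate, the 56 with the highest CD135 formed the CD135-high arm, the 56 with the lowest the CD135-low arm, and the rest the middle arm. Each outer arm holds 448 wells and the comparison 896 of the 2715. Counts were summed per plate and arm, so that the plate, not the cell, is the replicate.

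All cells came from the bone marrow of Dach1-GFP mice aged 8 to 16 weeks, and the labels name no treatment. In these mice a biotin tag had been added to the end of the Dach1 protein and an IRES-GFP cassette placed behind it, in C57BL/6 embryonic stem cells; 1 targeted clone was used to make chimeras, which were mated with C57BL/6 mice, and Flpe recombinase then removed the neomycin cassette. The reporter therefore descends from 1 clone, and the labels give neither the zygosity of the mice sorted nor how many animals went into a plate, so every p-value refers to variation from plate to plate, part of which may be technical. Marrow was enriched for cKit on magnetic beads before the sort of LSK cells, a fraction defined as lineage-negative, Sca1-positive and cKit-positive that holds stem cells and early progenitors. Kit was at 206 to 358 CPM and Ly6a, which encodes Sca1, at 33.3 to 79.5 CPM (counts scaled to a common library total) in every plate and arm. Plates named LC (replicates 1 to 4) and LCE (replicates 5 to 8) form separate sets in the labels and are treated as batches.

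CD135 is FLT3, a receptor tyrosine kinase encoded by Flt3. Its ligand sustains multipotent progenitors and the early steps towards lymphoid and dendritic cells. Within the LSK fraction, long-term stem cells carry little CD135 and much CD150, and lymphoid-primed multipotent progenitors carry the most CD135. Dach1 encodes a nuclear cofactor of transcription, and GFP in these mice is translated from the Dach1 transcript.

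The intensities that chose the wells are given as a description only. Over the LC plates the median CD135 of the low arm ranged from 221 to 590 and that of the high arm from 1560 to 5419 arbitrary units. On the LCE plates the low arm ranged from 477 to 762 and the high arm from 5885 to 6924. At the edges of the arms, the lowest CD135 in the high arm was 921 to 4556 over plates, and the highest in the middle arm 884 to 4471. The highest CD135 in the low arm was 368 to 2162 against a lowest of 373 to 2170 in the middle arm, and the GFP-high wells nearest the GFP median had 674 to 1498 units against 674 to 1497 for the wells just below it. High is meant within the GFP-high cells: the median well of the high arm stood at the 53.7th to 62.2nd percentile of CD135 of its whole plate, and that of the low arm at the 12.4th to 16.3rd. GFP itself fell along CD135 inside the gate: its median was 2232 ± 187.2 (SD, n = 8 plates) in the low arm and 1468 ± 437 in the high arm, lower in the high arm on all 8 plates. Arms matched in GFP were formed as an alternative for that reason, by taking the outer arms within each of 4 bins of GFP; their GFP medians averaged 1795 and 1802.

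Each plate and arm summed to 337175 to 872073 counts, and the median kept well held 5626 to 13398 counts over plates. Levels of genes are given in CPM of their plate and arm, and log2 differences are high minus low arm with their standard error. Adjusted p-values are from edgeR's quasi-likelihood test with the plate as a block, adjusted over all genes tested. Median counts per well were 9162 ± 3167 (SD, n = 8) in the low arm and 10436 ± 3925 in the high arm, higher on 6 of 8 plates (two-sided exact permutation p = 0.0391), and CPM remove a difference in total RNA.

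Surface proteins that took no part in the choice of wells differed along with CD135. CD150, the SLAM receptor of long-term stem cells, had a median of 1336 ± 1060 (SD, n = 8 plates) in the low arm and 546 ± 469 in the high arm, and was lower in the high arm on all 8 plates. Sca1, encoded by Ly6a, rose from 2802 ± 587 to 5685 ± 1141, and CD11b, an integrin chain of myeloid cells, from 681 ± 284 to 1098 ± 521, each higher on all 8 plates. For each of these 3 proteins the two-sided exact permutation test over plates gave p = 0.00781, the smallest that 8 plates allow, and p = 0.013 after Benjamini-Hochberg adjustment over the 5 proteins tested on 8 plates. cKit averaged 6090 in the CD135-low arm and 6464 in the CD135-high arm, higher on 5 of 8 plates (exact permutation p = 0.336); it was higher on all 4 LC plates and lower on 3 of the 4 LCE plates. IL7R differed by 22.9 ± 34.6 units (SD, n = 8), less than its spread over plates (exact permutation p = 0.102).

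Some proteins were used on the LCE plates alone, where 4 plates cannot give an exact permutation p below 0.125. CD48, a SLAM-family protein that long-term stem cells lack, averaged 2849 ± 813 (SD, n = 4) among CD135-low and 3940 ± 1090 among CD135-high wells and was higher on 3 of 4 plates. PIR-A, a paired immunoglobulin-like receptor, averaged 425 and 485 and was higher on 4 of 4 plates. CD16/32, the Fc gamma receptors used to sort myeloid progenitors, averaged 668 and 715, a difference smaller than its spread over plates (46.2 ± 91.0, SD). Within arms matched in GFP, CD150 still differed on all 8 plates (878 against 622), and cKit was higher in the high arm on all 8 plates (5848 against 7065).

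**Figure D1:**
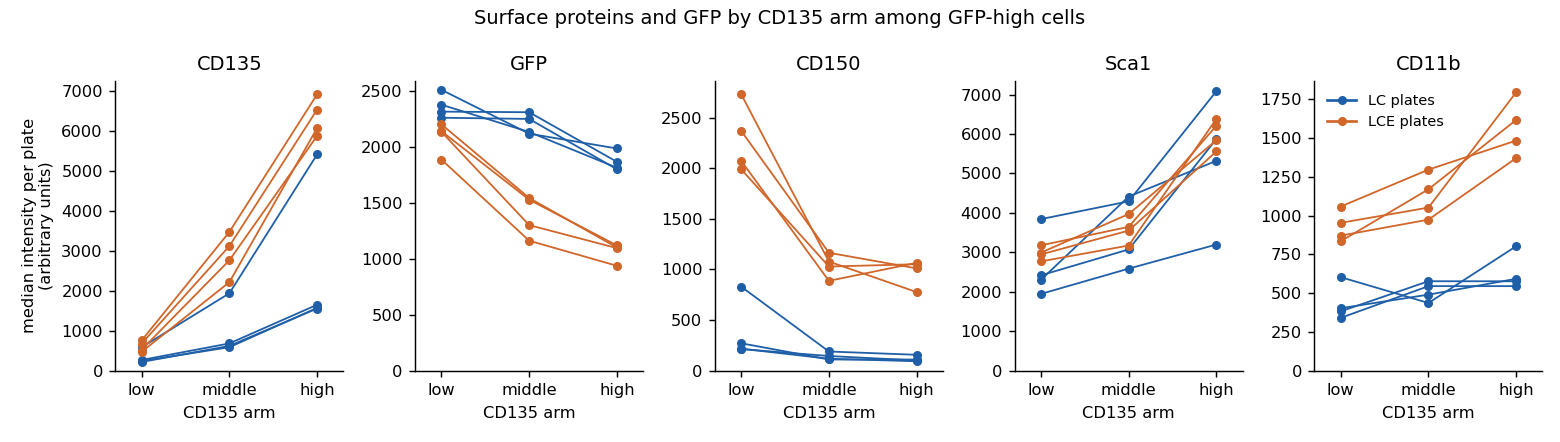
Median fluorescence intensity of CD135, GFP, CD150, Sca1 and CD11b, in arbitrary linear units, in the CD135-low, middle and CD135-high arms of the GFP-high wells, each line a plate (blue LC, orange LCE). CD135 set the arms; GFP and CD150 fall and Sca1 and CD11b rise from the CD135-low to the CD135-high arm on all 8 plates.

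The RNA of the high arm differed from that of the low arm in 178 of 7901 genes tested, 93 higher and 85 lower, which is 2.25% of genes (1.18% higher, 1.08% lower). Most differences were small: 154 of the 178 were under 2-fold, the median rise of the genes called was 0.55 and the median fall was 0.72 on the log2 scale (-0.72), beside a median of 0.00 over all genes tested. 90 of the 178 had the same sign on all 8 plates. A gene too low in both arms was not tested, while one high enough in a single arm was, so counts over a list describe its tested genes and not the whole list. Flt3, Calcrl, Satb1, Runx2 and Hlf rose, and genes of mast cells, granulocytes, megakaryocytes and of the stem cell list such as Cpa3, Elane, Itga2b, Apoe and Gata2 fell. The count depends on the plate block, which also takes up the plate set, and on the tool. Without the plate block 9 genes were called (0.114%), all of them among the 178, and DESeq2 called 56 (0.709%).

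Flt3, the gene of the sorted receptor itself, was at 44.7 CPM on the lowest plate, 67.2 at the median and 105 on the highest in the low arm, and at 100.1, 175 and 231 CPM in the high arm. The arms met only across plate sets, since every LC plate was lower than every LCE plate in the low arm, and the high arm was higher on 8 of 8 plates. The difference was 1.33 ± 0.11 on the log2 scale, a 2.51-fold rise (adjusted p = 3.93e-14), and Flt3 passed in all 29 alternative settings that tested it, with 0.86 to 1.51. Of the other genes of the FLT3 signalling list, a set of adaptors, kinases, phosphatases and targets downstream of the receptor, none passed in the main comparison. There 1 of 22 tested genes was called, Flt3, and the median over the list was 0.05 against 0.00 over all genes. In edgeR's test 7 of the 22 had an unadjusted p below 0.05, against 913 of all 7901 genes tested. On LC plates alone (1.09% of all genes called) and with arms matched in counts per well (2.65%) 2 of 22 rose. With arms matched in GFP (2.76%) 1 of 21 rose and 1 fell. Stat5a, a transcription factor activated by FLT3, had -0.48 ± 0.16 (adjusted p = 0.0915), Grb2, an adaptor, -0.33 ± 0.11 (adjusted p = 0.0885) and Bcl2, an inhibitor of cell death, 0.33 ± 0.11 (adjusted p = 0.0932).

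Of the tested transcripts of the other sorted proteins, only Dach1 was called. Dach1 was at 25.2, 66.4 and 87.5 CPM (lowest, median and highest plate) in the low arm and at 8.68, 29.9 and 56.2 CPM in the high arm. It was lower on 8 of 8 plates with overlapping arms, by 0.94 on the log2 scale (-0.94 ± 0.18, adjusted p = 0.000241). Its difference was -0.70 on the LC plates alone (adjusted p = 0.132) and -1.50 on the LCE plates alone (adjusted p = 0.000448), and with arms matched in GFP it was -0.76 (adjusted p = 0.00266). Ly6a, which encodes Sca1, had 0.34 ± 0.16 (adjusted p = 0.383), Kit -0.06 ± 0.07 (adjusted p = 0.856) and Cd48 0.16 ± 0.11 (adjusted p = 0.676), so that no change in Ly6a RNA was called beside the difference in Sca1 protein.

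The genes of the lymphoid and dendritic lists that passed were all higher in the high arm. Of 11 tested genes of the lymphoid priming list 3 rose, Satb1 and Sox4 among them, and the list's median was 0.29. With arms matched in GFP, where 212 of all 7693 genes were called, 2 of 11 rose and the median was 0.14. With GFP and CD150 matched (170 of all 7723 genes called) 1 of 11 rose (median 0.16). With counts per well matched (207 of all 7798 genes called) 6 of 11 rose (median 0.32). Satb1, a chromatin organiser needed for lymphoid development, was at 63.8, 76.0 and 138 CPM in the low arm (lowest, median and highest plate) and at 110.1, 163 and 208 CPM in the high arm. It was higher on 8 of 8 plates, though the range of the arms overlapped between plate sets. Its difference was 0.93 ± 0.11 (adjusted p = 4.86e-09). Sox4, a transcription factor of early B cell development, rose by 0.24 ± 0.06 (adjusted p = 0.0103), and without replicate 1 it missed the threshold (0.20, adjusted p = 0.0817). Dntt, the terminal transferase of lymphoid progenitors, ran from 28.1 to 147 CPM over plates in the low and from 36.7 to 234 CPM in the high arm. It was higher on 5 of 8 plates and did not pass (0.38 ± 0.14, adjusted p = 0.198). The plate sets differed: Dntt was higher in the high arm on every LCE plate (55.4 to 147 CPM in the low and 122 to 234 CPM in the high arm). On the LC plates it was lower in the high arm except on replicate 4 (28.1 to 62.7 and 36.7 to 61.6 CPM).

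Of 5 tested genes of the dendritic cell list 2 rose. Runx2, a transcription factor of plasmacytoid dendritic cells and bone, was at 34.5, 62.8 and 79.0 CPM in the low arm and at 71.3, 101 and 148 CPM in the high arm. The high arm was higher on 8 of 8 plates (0.74 ± 0.13, adjusted p = 9.61e-05). Irf8, which directs monocyte and dendritic fates, was at 14.8, 21.03 and 52.3 CPM in the low arm and at 17.4, 51.1 and 66.7 CPM in the high arm. It was higher on 7 of 8 plates by 0.97 ± 0.20 (adjusted p = 0.000977), and with arms matched in GFP it missed the threshold (0.67, adjusted p = 0.0557). Tcf4, the E protein that specifies plasmacytoid dendritic cells, had -0.02 ± 0.09 (adjusted p = 0.973). None of 6 MHC class II genes and neither of 2 B lineage genes passed in edgeR or DESeq2, and none of these 8 had an unadjusted p below 0.05.

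**Figure D2:**
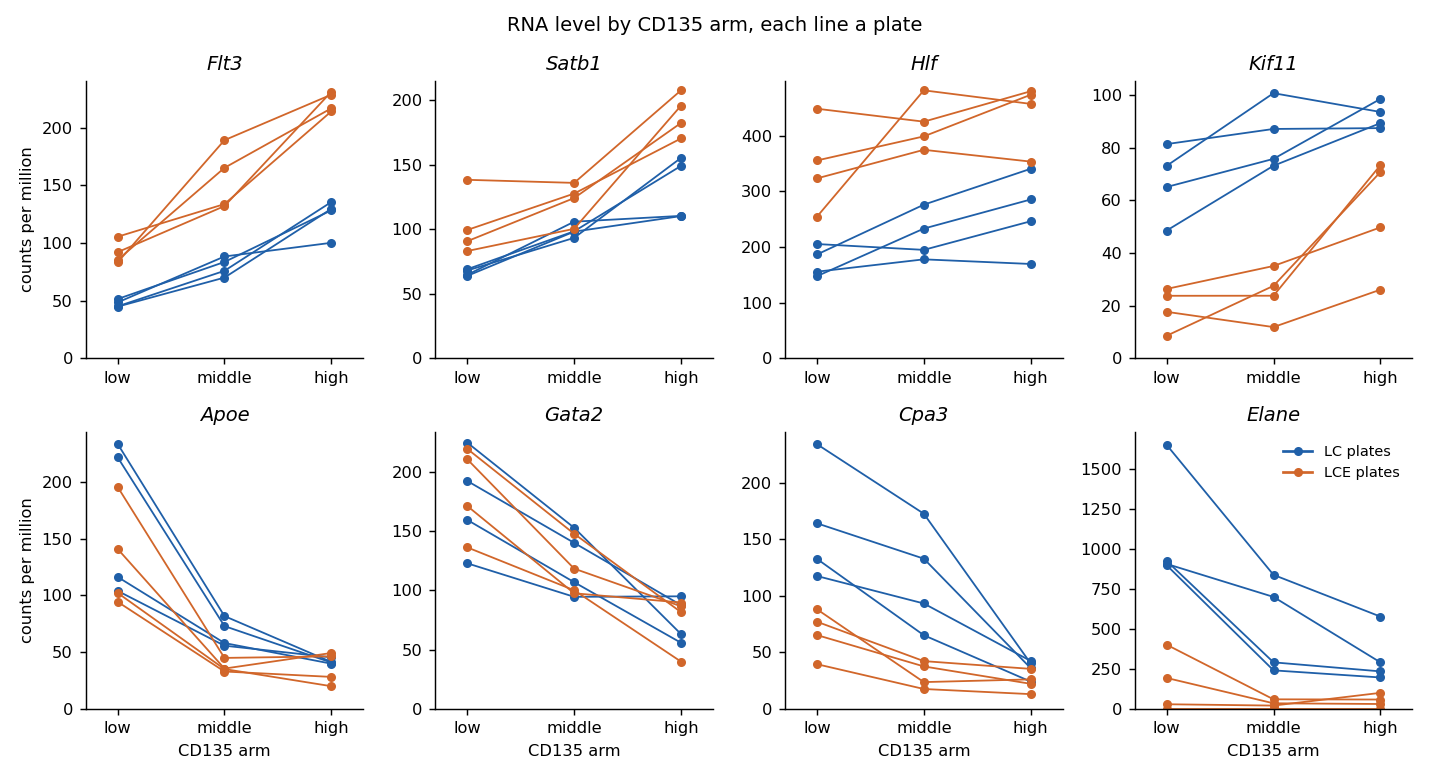
Level of 8 genes in CPM (linear axis, each panel with its own scale) in the CD135-low, middle and CD135-high arms of the GFP-high wells, each line a plate (blue LC, orange LCE). Flt3, Satb1, Hlf and Kif11 end higher and Apoe, Gata2 and Cpa3 lower on all 8 plates, and Elane sits at 0 to 400.4 CPM on the LCE plates.

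The stem cell list moved both ways. Of 17 tested genes 4 fell, among them Apoe, Gata2 and Pdzk1ip1, and 1 rose, Hlf, with a list median of -0.20. Among wells with CD150 at or below the plate median, where 10 of the list were tested, that median was 0.15. Apoe, which encodes a lipid carrier, was at 94.4, 129 and 234 CPM in the low arm (lowest, median and highest plate) and at 19.9, 41.0 and 49.2 CPM in the high arm. The arms did not overlap, and Apoe was 3.86-fold lower (-1.95 ± 0.14, adjusted p = 6.53e-17). Gata2, a zinc finger transcription factor of stem, mast and megakaryocyte cells, was at 123, 182 and 225 CPM in the low arm and at 39.8, 84.0 and 95.0 CPM in the high arm. Its arms did not overlap either (-1.25 ± 0.12, adjusted p = 4.24e-12). Both genes passed in all 29 alternatives, and with arms matched in GFP and CD150 together they stood at -1.23 (Apoe, adjusted p = 2.6e-09) and -0.94 (Gata2, adjusted p = 5.48e-10).

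Hlf, a bZIP transcription factor of stem cells, was at 147, 229.8 and 449 CPM in the low arm and at 169, 347 and 480.0 CPM in the high arm. It was higher on 8 of 8 plates (0.47 ± 0.08, adjusted p = 4.1e-05), opposite in sign to the other called genes of its list. It missed the threshold with arms matched in GFP and CD150 (0.27, adjusted p = 0.0637). Mecom, Procr and Meis1 did not pass.

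Genes of the mast cell and basophil lineage fell. Of 11 listed genes 8 were in the files and 3 were tested, and all 3 fell (list median -1.70): Cpa3, Slc18a2 and Gata2, of which Gata2 is also on the stem cell list. Cpa3, the mast cell carboxypeptidase, was at 39.5, 103 and 234 CPM in the low arm and at 12.98, 30.7 and 42.3 CPM in the high arm. It was lower on 8 of 8 plates, with the arms meeting at their edge, and 3.94-fold lower in the fit (-1.98 ± 0.16, adjusted p = 2.07e-15). Slc18a2, the vesicular monoamine transporter that loads histamine, was at 36.6 to 86.8 CPM in the low and at 10.8 to 24.4 CPM in the high arm, without overlap (-1.70 ± 0.20, adjusted p = 4.86e-09). The summed level of the list was 264 to 631 CPM over plates in the low and 88.5 to 194 CPM in the high arm.

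Megakaryocyte and erythroid genes were fewer in the test. Itga2b, which encodes integrin alpha IIb (CD41), was at 30.2, 69.3 and 113 CPM in the low arm and at 16.3, 23.1 and 44.1 CPM in the high arm, lower on 8 of 8 plates with overlapping arms (-1.38 ± 0.18, adjusted p = 4.45e-08). Cd9, a tetraspanin of platelets and stem cells, fell by 0.98 on the log2 scale (-0.98 ± 0.19, adjusted p = 0.000602), and the other 4 of 6 tested megakaryocyte genes did not pass (list median -0.52, and 0.10 over 3 genes tested among wells with low CD150). Of 8 erythroid genes 2 fell, Zfpm1, the GATA cofactor FOG1 (-0.90 ± 0.16, adjusted p = 0.000109), and Car2, a carbonic anhydrase (-0.30 ± 0.06, adjusted p = 0.000951). With arms matched in GFP and CD150, Zfpm1 missed the threshold (-0.43, adjusted p = 0.215). Among wells with low CD150, Car2 stood at 0.11 (adjusted p = 0.773), and DESeq2 did not call it. Fewer cells with these transcripts and less of them per cell cannot be told apart in summed counts.

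Some granulocyte and monocyte genes fell, unevenly over plates. Of 16 tested genes 7 fell, Elane, Ms4a3, Mpo, Ctsg, Prtn3, Ly6c2 and Nkg7, 1 rose, Emb, and the list's median was -0.49. DESeq2 called 1 of the 16 lower and 1 higher. Elane, neutrophil elastase, was at 0, 649 and 1649 CPM in the low arm (lowest, median and highest plate) and at 0, 148 and 576 CPM in the high arm. It was lower in the high arm on 6 plates, higher on 1 and without a count in either arm on 1, replicate 5, where 0 counts allow up to 6.58 CPM in the low and 6.49 CPM in the high arm by counting error alone. The arms overlapped widely. The fit gave -1.77 ± 0.11 (adjusted p = 1.09e-18), and DESeq2 did not call it (-1.66, adjusted p = 0.0912). Mpo, myeloperoxidase, was at 121, 994 and 2196.5 CPM and at 142, 571 and 1136 CPM. It was lower on 6 and higher on 2 plates (-0.69 ± 0.08, adjusted p = 3.85e-09), and DESeq2 did not call it either (adjusted p = 0.521).

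The azurophil granule genes rested in part on few wells. In the low arm 6 of 448 wells gave at least 0.5% of their counts to Elane and held 19.4% of that arm's Elane counts. The high arm had 0 of 448, which would allow a share of up to 0.67% if wells were independent, but wells of a plate are not. At a level of 0.1% of counts there were 43 such wells among CD135-low wells (0 to 19 per plate) and 6 among CD135-high wells (0 to 4 per plate). Ms4a3, a gene of granulocyte and monocyte progenitors, fell on 8 of 8 plates (-1.66 ± 0.17, adjusted p = 3.82e-11) and had no well at 0.5%. On the LCE plates alone, where 0.979% of all genes were called, 2 of 12 tested genes of the list fell, 1 rose and the median was 0.03. Prtn3, proteinase 3, was -0.74 on LC and 0.11 on LCE plates in a fit of both sets, and this difference between sets passed (adjusted p = 0.000901), as it did for 15 genes in all (0.19% of those tested).

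Genes of the G2 and M phases were higher in the high arm where they passed, and no gene of the G1 and S phase lists passed in the main comparison. Replication-dependent histone genes are not on the S phase list, and those of H2A are given below. Of 22 tested genes of the G2 and M list 6 rose, Top2a, Nusap1, Mki67, Kif11, Ube2c and Tpx2, none fell, 21 of 22 differences were above 0 and the median was 0.34. DESeq2 called 3 of the 22. None of 11 G1 genes (median -0.14) and none of 22 S phase genes (median 0.03) passed in edgeR or DESeq2, with 5 and 2 at an unadjusted p below 0.05, against 913 of all 7901 genes tested. With arms matched in GFP (2.76% of all genes called) 1 of 22 S phase genes rose. With GFP and CD150 matched (170 of 7723) 2 of 22 rose and 1 of 10 G1 genes fell. Of the G1 genes 1 of 9 fell with counts per well matched (2.65%). After CD135 was corrected for scatter (0.916%) 1 of 7 fell, and without wells of other lineages (158 of 7360) 1 of 8. Top2a, the topoisomerase that untangles chromosomes before division, was at 151, 333 and 477 CPM in the low and at 197, 424 and 579 CPM in the high arm. It was higher on 8 of 8 plates (0.39 ± 0.06, adjusted p = 1.9e-05). Kif11, the kinesin that separates spindle poles, was at 8.52, 37.4 and 81.4 CPM in the low arm and at 26.0, 80.5 and 98.6 CPM in the high arm, again higher on 8 of 8 plates (0.72 ± 0.17, adjusted p = 0.00526). Nusap1, a spindle protein, rose by 0.84 ± 0.17 (adjusted p = 0.000937).

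The size of this group moved with how the arms were formed. With arms matched in GFP, where 2.76% of all genes were called, 16 of the 22 genes rose and the median was 0.69, and in those arms the median counts per well were 8671 and 11043, higher in the high arm on 8 of 8 plates. With arms matched in counts per well instead, where 2.65% of all genes were called, 3 of 22 rose and the median was 0.19. On the LCE plates, where 16 were tested, 3 rose, and after CD135 was corrected for light scatter there (0.916% of all genes called) 0 of 16 rose in edgeR, with 2 at an unadjusted p below 0.05 and a median of 0.19; DESeq2 was not run on that setting. The part of cell size and RNA content in this group was not tested beyond these values.

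The promoters of Kif11 and Top2a are shown for the motifs common in genes of cell division, and that of Cpa3, the gene that fell most, for the GATA motif. Each is the 250 bases before the RefSeq start in GRCm38.p6, written 5′ to 3′ on the strand of the gene, with matches in capitals. Searched on both strands, the CCAAT box also shows as ATTGG. The same holds for the element TTTGAA, which also shows as its reverse complement TTCAAA, and for the GATA motif, spelled AGATAA here. No match shown overlaps another. Kif11 lies at chr19:37376132-37376381 (plus strand), Top2a at chr11:99024190-99024439 (minus strand) and Cpa3 at chr3:20242182-20242431 (minus strand).
Kif11: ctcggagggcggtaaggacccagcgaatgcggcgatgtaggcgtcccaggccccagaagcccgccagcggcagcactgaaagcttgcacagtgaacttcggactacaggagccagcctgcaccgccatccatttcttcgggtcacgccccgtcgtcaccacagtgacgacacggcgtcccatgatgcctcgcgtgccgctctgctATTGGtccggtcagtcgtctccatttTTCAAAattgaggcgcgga
Top2a: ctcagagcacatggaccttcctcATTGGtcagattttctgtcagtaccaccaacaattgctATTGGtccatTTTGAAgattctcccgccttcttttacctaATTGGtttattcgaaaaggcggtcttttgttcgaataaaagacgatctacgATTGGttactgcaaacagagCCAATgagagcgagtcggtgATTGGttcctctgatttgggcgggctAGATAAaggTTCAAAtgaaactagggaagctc
Cpa3: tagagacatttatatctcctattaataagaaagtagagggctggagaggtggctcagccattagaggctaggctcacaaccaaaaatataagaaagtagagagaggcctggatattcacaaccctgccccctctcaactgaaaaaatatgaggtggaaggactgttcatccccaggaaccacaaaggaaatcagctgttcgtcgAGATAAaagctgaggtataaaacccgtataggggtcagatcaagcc

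The Top2a window held 6 matches to CCAAT, 2 to TTTGAA and 1 to AGATAA, and the Kif11 window 1 to CCAAT and 1 to TTTGAA. The CCAAT box, which NF-Y binds, was in the windows of 16 of the 18 G2 and M genes matched to the RefSeq table by symbol, in 34.7% of the windows of all genes tested and in 33.8% of all 32851 windows of this length. The cell cycle homology element TTTGAA was in 8 of these 18, in 10.8% of the windows of genes tested and in 16.0% of all windows. The GATA motif AGATAA was in the windows of 2 of 3 tested mast cell genes, Cpa3 among them. It was in 3.85% of the windows of all genes that fell, 7.23% of those that rose, 5.50% of those of all genes tested and 9.99% of all windows. The matches are counts of letters, and of the called genes 61 of 93 that rose and 62 of 85 that fell were in the table.

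Histone H2A genes, a group chosen after their values were seen, rose in part: 13 of 21 tested were called higher, none fell, and the median was 0.49. DESeq2 called 6 of the 21, and on the LC plates alone, where 1.09% of all genes were called, 4 of 21 rose. H2afy, which encodes the variant macroH2A, rose by 0.60 ± 0.04 (adjusted p = 7.8e-17), from a mean of 1101 to 1639 CPM. The replication-dependent members are near-identical, their reads can be split between copies, and their separate values are uncertain. Several differed between plate sets, among them Hist1h2an at 0.30 on LC and 0.94 on LCE plates (adjusted p of the difference 0.00158). With arms matched in counts per well 11 of 21 were called, and 4 of 16 after the correction for scatter on LCE plates.

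By size, the 12 largest rises with the same sign on at least 7 plates began with Il17re, a subunit of the interleukin 17C receptor. It was at 2.61, 10.6 and 26.3 CPM in the low and at 17.96, 26.0 and 40.8 CPM in the high arm, higher on 8 of 8 plates (1.403 ± 0.29, adjusted p = 0.000937), but with arms matched in GFP and CD150 it missed the threshold (0.61, adjusted p = 0.414). After Flt3 came Gm5111, Mcm9, Bex6, Shisa8, Calcrl, Sap30, Snn, Irf8, Cdc25b and Gm42031, from 1.11 down to 0.94. Calcrl, the receptor subunit for adrenomedullin and calcitonin gene-related peptide, was at 28.4, 38.4 and 59.3 CPM in the low and at 55.7, 80.9 and 117 CPM in the high arm. It was higher on 8 of 8 plates (1.04 ± 0.16, adjusted p = 2.29e-06) and passed in 28 of 29 alternatives. Of these 12, Cdc25b passed in 6 of 17 alternatives, and Gm5111, Mcm9, Shisa8 and Snn were each lost when 1 plate was left out (Gm5111 and Mcm9 without replicate 7, Shisa8 without replicate 5, Snn without replicate 1, 3, 4 or 7).

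The 12 largest falls were Cpa3, Apoe, Tgfbr3, Slc18a2, Ms4a3, Mt1, Itga2b, Ptgs1, Pdzk1ip1, Gata2, Snap23 and Ormdl3. All 12 were lower in the high arm on 8 of 8 plates. Tgfbr3, the co-receptor betaglycan, had -1.79 ± 0.31 (adjusted p = 5.36e-05), and its arms did not overlap. Ptgs1, cyclooxygenase 1, had -1.34 ± 0.25 (adjusted p = 0.000173), and Mt1, a metallothionein, -1.39 ± 0.22 (adjusted p = 1.28e-05). Pdzk1ip1, a small membrane protein of stem cells, had -1.25 ± 0.24 (adjusted p = 0.00032), and nearly no difference on replicate 2.

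**Figure D3:**
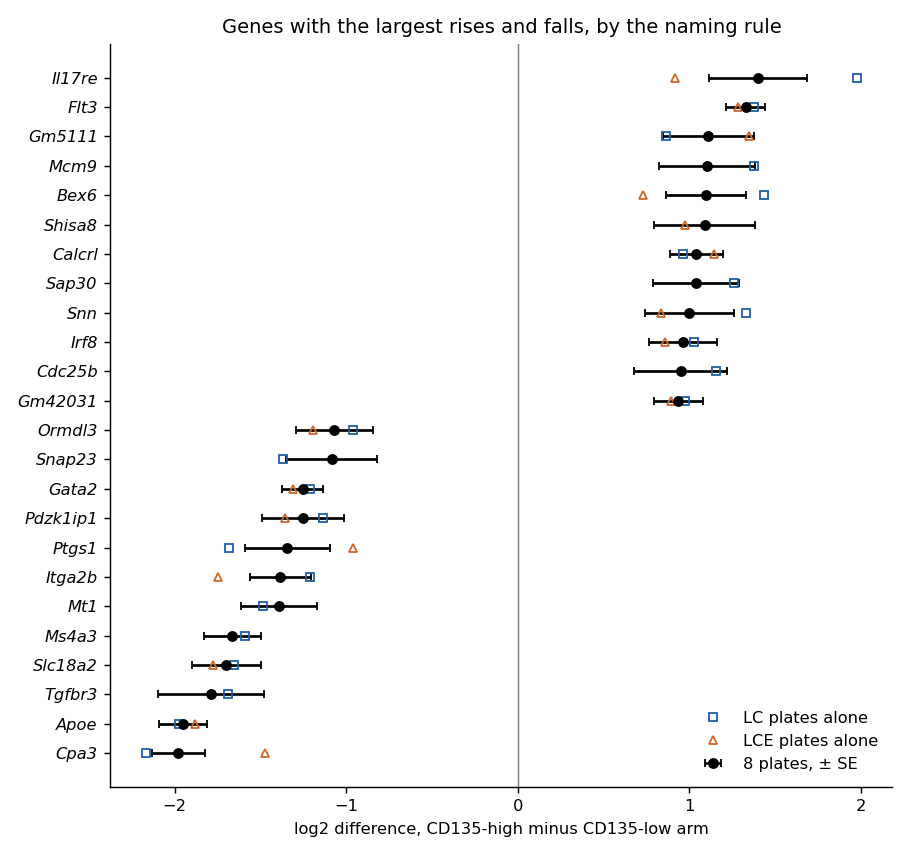
Log2 difference of the 12 largest rises and 12 largest falls, CD135-high minus CD135-low arm, with the value fitted over 8 plates and its standard error (black) and the values of LC plates alone (squares) and LCE plates alone (triangles), where the gene had enough counts there to test. The 12 falls run from -1.98 to -1.07 and the 12 rises from 0.94 to 1.403.

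Few genes of the remaining lists passed. 0 of 18 MYC and ribosome biogenesis genes and 0 of 17 mitochondrially encoded genes passed in edgeR or DESeq2, with 2 and 1 at an unadjusted p below 0.05, against 913 of all 7901 genes tested. Of 88 ribosomal protein genes 1 passed, Rps24, at 0.13 ± 0.03 (adjusted p = 0.022), and it was lost without replicate 3, 5 or 8. Of 12 cytokine receptor genes Flt3 rose and Ifngr1, the interferon gamma receptor, fell (-0.61 ± 0.17, adjusted p = 0.0267), the latter lost without replicate 1, 4 or 8. Csf3r, the receptor for G-CSF, did not pass (0.46 ± 0.14, adjusted p = 0.0758).

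**Figure D4:**
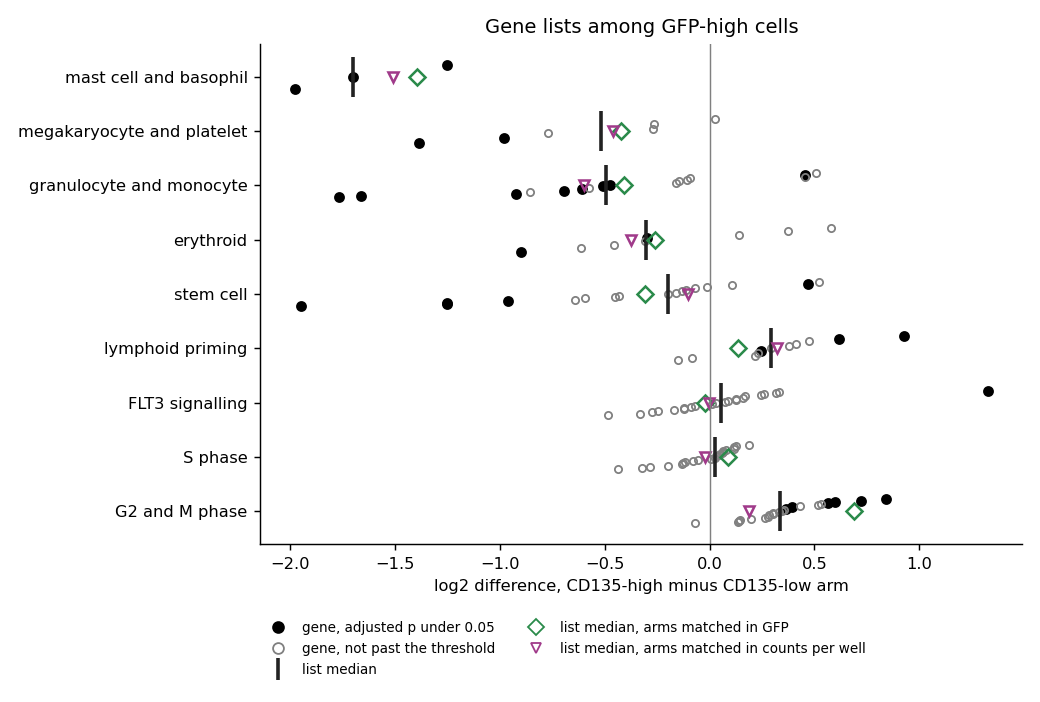
Log2 difference, CD135-high minus CD135-low arm, of each tested gene of each list (points, filled where the adjusted p is under 0.05), with the list's median (bar) and its median with arms matched in GFP (diamonds) or in counts per well (triangles). The mast cell list lies lowest (median -1.70 over 3 genes), and the G2 and M list has 21 of 22 genes above 0.

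The middle arm, which had no part in the main comparison, splits the span of CD135 into a lower and an upper step. In a joint fit of 3 sums per plate, 50 of 8586 genes were called between the middle and the low arm (0.582%). Between the high and the middle arm 17 were called (0.198%). The contrasts share the middle arm and are not independent. The plate sets differed: in the lower and upper step 28 and 3 of 9759 genes were called on LC plates alone, and 14 and 21 of 6654 on LCE plates alone. The steps were not matched in CD135 or GFP. On LCE plates GFP medians were 1890 to 2205, 1164 to 1547 and 940 to 1123 in the low, middle and high arms. Of the 85 genes that fell from low to high, 61 differed more in the lower step, with a median of -0.42 against -0.29. Of the 93 genes that rose, 52 differed more in the lower step, with a median of 0.31 against 0.23. Apoe fell by 1.46 on the log2 scale in the lower step (-1.46, adjusted p = 8.06e-14) and by 0.50 in the upper (-0.50, adjusted p = 0.338). Elane had -1.27 (adjusted p = 2.3e-12) and -0.54 (adjusted p = 0.103). Cpa3 had -0.65 (adjusted p = 0.00355) and -1.35 (adjusted p = 6.93e-08), while Flt3 passed in both steps with 0.74 (adjusted p = 1.99e-05) and 0.59 (adjusted p = 0.000379). Whether the steps differ for a gene was not tested.

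CD135-high and CD135-low arms were also formed among the 1359 GFP-low wells, by ranking CD135 anew within those wells on each plate. Their limits of CD135 were therefore not those of the GFP-high arms, and the span of CD135 between arms was not matched. The difference of the CD135 effects between GFP-high and GFP-low wells was tested in 1 fit of 32 sums. It passed for 74 of 9088 genes (0.814%), 44 with a more positive difference among GFP-high cells (0.484%) and 30 with a more negative one (0.33%). Of the 178 genes called among GFP-high cells 16 passed. At least 2 of 8 B lineage genes were detected in 304 of the 2715 kept wells, of which 102 were GFP-high; the CD135-low arm held 24 of these and the CD135-high arm 43. By a stricter rule chosen after seeing the data, at least 0.1% of counts from B lineage genes, there were 101 such wells, of which 2 were GFP-high. The wells left out below are those of the first rule, with single wells rich in RNA of other lineages.

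Apoe, Gata2, Itga2b and Cpa3, which fell along CD135 in GFP-high cells, had differences nearer 0 in GFP-low cells. A more negative difference in GFP-high cells passed for 4 of 17 tested stem cell genes. It passed for 1 of 7 megakaryocyte and 2 of 4 mast cell genes. Apoe had -1.95 among GFP-high and -0.04 among GFP-low cells, an interaction of -1.91 ± 0.26 (adjusted p = 7.56e-07), from means of 151 to 38.8 CPM and of 37.3 to 32.8 CPM. Gata2 had -1.25 and 0.17 (interaction -1.42 ± 0.20, adjusted p = 3.34e-06), and its GFP-low means were 59.3 and 64.2 CPM, below the 74.9 CPM of the high arm of GFP-high cells. Itga2b had -1.42 and -0.02 (interaction -1.397 ± 0.31, adjusted p = 0.00793) and Cpa3 -1.99 and -0.71 (interaction -1.28 ± 0.31, adjusted p = 0.0187; 0.0697 in DESeq2).

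A more negative CD135 difference among GFP-high than among GFP-low cells passed for 3 of 15 tested lymphoid priming genes, Dntt, Il12a and Bcl11a. For 2 it was more positive, Ebf1 and Ighm, both B lineage genes with lower levels in the high arm among GFP-low cells. Dntt had 0.37 among GFP-high and 1.82 among GFP-low cells (interaction -1.45 ± 0.24, adjusted p = 5.57e-05), from means of 76.3 to 109 CPM and of 196 to 563 CPM. Il12a, a subunit of interleukin 12, had 0.48 and 1.54 (interaction -1.06 ± 0.24, adjusted p = 0.00797). Tcf4, of the dendritic cell list, had -0.03 and 0.86 (interaction -0.88 ± 0.13, adjusted p = 4.45e-06), and Bcl11a, a lymphoid and dendritic transcription factor, -0.09 and 0.47 (interaction -0.56 ± 0.10, adjusted p = 0.000435). These 4 and Apoe, Gata2, Itga2b and Cpa3 passed too when wells of other lineages were left out, while Ighm did not (-0.67, adjusted p = 0.211) and Ebf1 had too few counts to test. Irf8 rose in GFP-high cells and had -0.15 in GFP-low cells (interaction 1.10 ± 0.25, adjusted p = 0.00882); it missed the threshold without those wells (0.98, adjusted p = 0.0736).

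For Flt3, Satb1, Hlf and Top2a no difference between GFP-high and GFP-low wells was called. Flt3 had 1.33 and 1.70 (interaction -0.37 ± 0.19, adjusted p = 0.445), Satb1 0.92 and 1.24 (-0.32 ± 0.18, adjusted p = 0.541), Hlf 0.47 and 0.36 (0.11 ± 0.15, adjusted p = 0.853) and Top2a 0.39 and 0.40 (-0.00 ± 0.11, adjusted p = 0.994). Mpo and Ctsg, both granule proteins, fell less in GFP-high than in GFP-low cells, with log2 differences for Mpo of -0.72 against -1.51 (interaction 0.80 ± 0.18, adjusted p = 0.0062) and for Ctsg of -0.61 against -1.73 (interaction 1.11 ± 0.21, adjusted p = 0.000724). Igkc, the kappa light chain gene, had the smallest p (interaction 3.18 ± 0.20, adjusted p = 4.25e-21), and without wells of other lineages its interaction was 0.13 (adjusted p = 0.891).

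**Figure D5:**
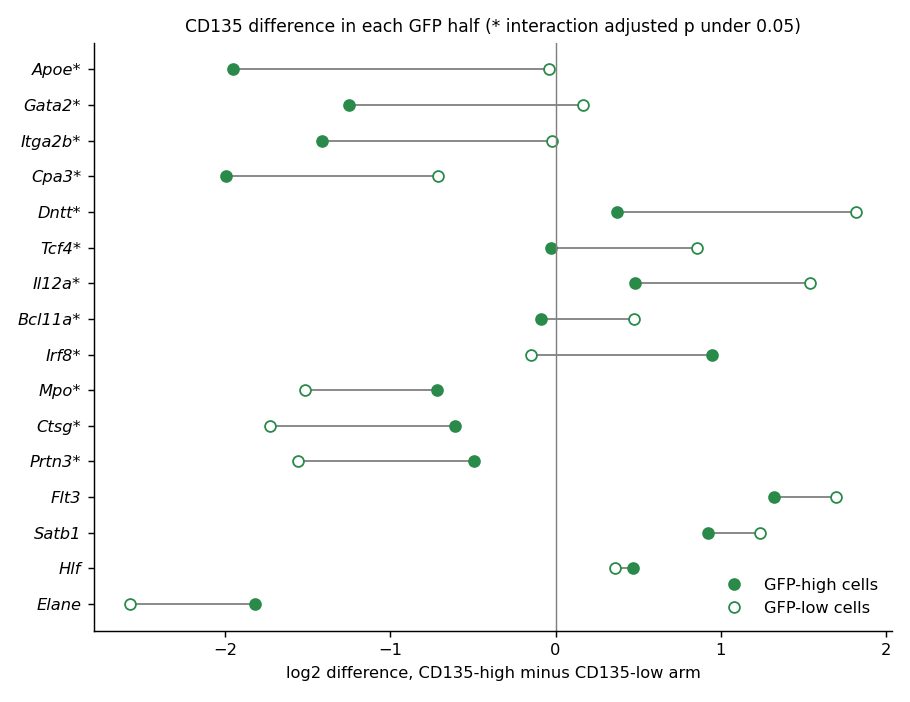
Log2 difference, CD135-high minus CD135-low arm, among GFP-high (filled) and among GFP-low wells (open) in a joint fit, where a star marks genes whose difference between GFP-high and GFP-low wells passed. Apoe, Gata2 and Itga2b lie near 0 among GFP-low wells, and Dntt reaches 1.82 there.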

How the data were processed

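The deposited counts hold 1 whole number per gene and well for 8 plates of 383 wells, and the well barcodes are the same 383 on all plates. Per the submitters' processing notes the genome build was GRCh38, while the deposited gene identifiers are mouse; the sources used here name no aligner, counter or handling of molecular tags, so a count may be a read or a molecule. The deposited fluorescence intensity of each cell is linear, per the file headers, with values below 0. In the sort records, 1 plate name beginning with LCE matched no sample, and its records were not used.

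Symbols were matched for 27249 of 27318 identifiers. Spike-in RNA (3.27% to 4.36% of counts, LC plates only) was left out. Counts were summed per plate and arm, filtered with filterByExpr, scaled by TMM and tested with edgeR 4.0.16 in R 4.3.3, with the plate as a block and a threshold of 0.05. Both arms come from the same plate and deviated together (correlation 0.322 to 0.543 over plates, 0.0807 to 0.321 within a plate set). DESeq2 1.42.0 was an alternative. Proteins were compared by the exact permutation of signs over plates. No doublet caller was run, since each well received 1 sorted cell. The method was tested on simulated data.

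Named genes are those of the sorted proteins, the 12 largest rises and falls among genes with adjusted p below 0.05, the same sign on at least 7 plates and at least 10 CPM in the higher arm, up to 4 genes per list by p, list genes whose interaction passed and the 5 leading interactions in each direction. A few genes that these rules name are not reported here. Promoter sequences are from RefSeq. The members of the comparison and all lists were chosen with earlier results of these data known, so no count over a list is independent support.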

Additional observations from a re-analysis of the deposited data

Results flagged for a closer look

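Values of single plates were compared with those of the other plates for each named gene and protein, over 121 groups; a sample far from the rest is found by chance in about 1 in 20 groups. For Pdzk1ip1, replicate 2 had a log2 difference of -0.10 (14.4 against 15.4 CPM), while the other 7 plates ran from -1.63 to -1.05. Replicate 7 stood apart for Cdc25b (-3.47, with 0 CPM in the high arm), Ighm (1.56), Cst3 (0.56) and Igkc (2.14). Replicate 2 stood apart for Mcm2 (-0.99), replicate 5 for Jun (-4.38, again with 0 CPM in the high arm) and replicate 6 for Jchain (-0.996). On replicate 1 the Sca1 medians of the arms differed by 1251 units, against 2610 to 3612 on the other 7 plates.

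The CD135 difference among GFP-high cells minus that among GFP-low cells passed edgeR's quasi-likelihood test for the genes that follow, given as log2 values. Of the stem, megakaryocyte and mast cell lists it was -1.91 for Apoe, -1.42 for Gata2, -1.397 for Itga2b, -1.28 for Cpa3 and -1.25 for Mycn. Of the lymphoid and dendritic lists it was -1.45 for Dntt, -1.06 for Il12a, -0.88 for Tcf4, -0.56 for Bcl11a and 1.10 for Irf8. Other negative values were -1.53 for Hoxa5, -0.42 for Ccnd2, -0.47 for Gm8292 and -0.19 for Rps4x.

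Positive values came from genes with lower levels in the high arm among GFP-low cells. Granulocyte and monocyte genes had 2.21 (F13a1), 2.16 (Ly6c2), 1.47 (Ly86), 1.11 (Ctsg), 1.06 (Prtn3) and 0.80 (Mpo). Erythroid genes had 3.56 (Hba-a1), 2.89 (Hba-a2), 2.45 (Hbb-bs), 2.19 (Hbb-bt), 2.36 (Car1), 1.67 (Blvrb) and 0.60 (Car2), and the globin genes have near-identical copies. B lineage and immunoglobulin genes had 3.73 (Igll1), 3.20 (Vpreb3), 3.18 (Igkc), 3.05 (Ebf1), 2.69 (Jchain), 1.82 (Cd79b) and 0.90 (Ighm). Without wells of other lineages Igkc, Jchain, Cd79b and Ighm had 0.13, -0.48, -0.27 and -0.67 and did not pass. The rest were Mt1 (1.31), mt-Nd1 (0.28) and mt-Nd2 (0.28), and Mt1 did not pass without those wells (1.16, adjusted p = 0.121).

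Between plate sets, the CD135 difference on LCE minus that on LC plates was 0.85 for Prtn3 and -0.73 for Ifitm3, an interferon-induced membrane protein with near-identical relatives, which had 0.50 on LC and -0.23 on LCE plates.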

How the results depend on the processing

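Most of the calls depended on the plate block, which takes up the plate set as well as the pairing of arms within plates. A block of plate set alone was not fitted, so the part of each was not tested. With no replicate block, 9 of the 178 genes remained called between the high and low arm, 1 gene between the middle and low arm (50 with the block), 0 between the high and middle arm (17 with the block, and 238 at an unadjusted p below 0.05 without it) and 2 for the difference between GFP-high and GFP-low cells (74 with the block). DESeq2 called 56, 22, 5 and 40 in the same order. No gene called both in a comparison and in an alternative of it was called with the opposite sign there.

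For the high against the low arm, 100 genes (42 higher, 58 lower) were called on LC and 58 (34 higher) on LCE plates alone, 35 with wells thinned to 3000 counts (25 higher, of 2925 tested), 115 (67 higher) with a higher GFP gate, 62 among wells with low CD150 and 55 after correcting CD135 for scatter. With arms matched in GFP 212 were called, 138 of them higher, and with GFP and CD150 matched 170, 117 higher; the latter, like arms matched in counts per well (207), was chosen after seeing the data. Leaving out 1 plate gave 119 to 171, lowest without replicate 4. For the middle against the low arm there were 28 on LC plates, 14 on LCE plates, 79 without a filter and 23 to 64 with 1 plate left out (23 without replicate 4). For the high against the middle arm there were 3 on LC plates, 21 on LCE plates, 26 without a filter, 7 without wells of other lineages and 4 to 24 with 1 plate left out, where leaving out replicate 5, 6, 7 or 8 gave 5, 6, 6 and 4. For the difference between GFP-high and GFP-low cells there were 97 on LC plates, 26 on LCE plates, 133 without a filter, 48 without wells of other lineages and 37 to 95 with 1 plate left out (37, 50 and 47 without replicate 2, 3 and 4). Without a filter 208 were called between the outer arms, 91 of them higher.

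Of proteins and called genes named here, values that turned were cKit on LCE plates (-507 units), Car2 (0.11) among wells with low CD150, and Prtn3 on LCE plates (0.13) and after the scatter correction (0.083). Among wells with low CD150, list medians that turned included those of the stem cell (0.15), megakaryocyte (0.10) and erythroid list (0.11, Car2 alone). The MHC class II list turned there too (-0.33, 3 genes tested). On LCE plates the granulocyte list turned (0.03). After the scatter correction the granulocyte (0.03), erythroid (0.07) and S phase list (-0.16) turned. The S phase and FLT3 signalling lists turned in some other settings (-0.02 to -0.00), and medians of some further lists turned as well. The causes were not tested. Depth limits genes at few counts: thinning left 2925 of 7901 genes to test.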

Other observations

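Shares of wells with a count of a gene were taken after each well was thinned to 3000 counts, which 445 of 448 wells in each arm had. Apoe was found in 32.1% of CD135-low and 10.1% of CD135-high wells, Gata2 in 37.5% and 17.5%, Cpa3 in 19.1% and 6.97% and Dach1 in 15.3% and 6.74%. Flt3 was found in 19.1% and 36.2%, Satb1 in 22.7% and 31.9% and Hlf in 53.3% and 61.1%. Elane was in 36.4% and 31.9% of wells, and its share reached 85.5% on 1 plate in the low arm, while replicate 5 had no count of it. Dntt was in 21.8% of wells in both arms. Before thinning the shares were higher, at 42.0% and 73.0% for Flt3 and at 54.5% and 24.6% for Apoe.

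Markers of other cell types gave the following levels in the sums. The macrophage list summed to 24.8 to 147 CPM over plates in the low arm and 35.4 to 113 CPM in the high arm, and the T and NK cell list to 1.31 to 10.1 CPM and 0 to 8.65 CPM, with 6 of its 10 genes at 0 in both arms; no gene of either list had enough counts to test. The B lineage list summed to 51.3 to 373 CPM and 73.9 to 346 CPM. Of 2 tested plasma cell genes Xbp1, a transcription factor of secretory cells, fell (-0.59 ± 0.15, adjusted p = 0.0165 in edgeR's quasi-likelihood test), and it was lost without replicate 3, 4 or 6. A single neutrophil-like and a single platelet-rich well were in the low arm, 1 each. Without wells rich in RNA of another lineage, an alternative chosen after seeing the data, 177 genes were called between the outer arms.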
